A study of Mus musculus with 12 samples.

Results

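The DNA replication genes described here are 43 named genes, taken from the deposited expression table by gene symbol out of 12955 genes in all. All 43 were found, and all 43 passed the filter on low values (an FPKM of at least 1 in at least 2 libraries), as did 12059 genes of the table. By role they comprise 12 genes of origin recognition and licensing, 6 of helicase activation and 9 of the sliding clamp, its loader and single-strand binding. The others are 10 genes of the polymerases, primase and Okazaki fragment joining, 4 of nucleotide supply and 2 S phase regulators.

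The study examined Tex10, a nuclear protein known for its part in ribosome biogenesis and as a partner of Sox2 in mouse embryonic stem cells, during the making of primordial germ cell-like cells (PGCLCs). RNA was measured in 12 libraries in 6 groups of 2, and all came from the same male J1 mouse embryonic stem cell background. The groups are day 2 OE, day 2 EV, day 6 OE, day 6 EV, and at day 2 a group given dTAG13 for 2 days and its control given DMSO for 2 days. The labels do not spell out OE and EV, state no clone number, and do not say which protein carries the tag that dTAG13 acts on. dTAG13 is a small molecule that draws a protein carrying a matching tag to a ubiquitin ligase for degradation. All libraries hold poly(A)-enriched RNA of cells that were sorted from embryoid bodies with antibodies to CD61 and SSEA1, a pair of surface markers used to enrich mouse PGCLCs. Nothing in the labels says that the libraries of a group came from separate cultures, so p-values measure the spread between these libraries, which may be technical.

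DNA replication starts at origins that are bound by the origin recognition complex and licensed when Cdc6 and Cdt1 load the ring of Mcm2 to Mcm7, the core of the replicative helicase. Licensed origins fire once Cdc45 and the GINS subunits join that ring, after which primase, the polymerases, the sliding clamp Pcna and the nucleotide-making enzymes copy the DNA. Transcription of many of these genes is high around the start of S phase and is known to be driven by E2F factors, and pluripotent stem cells, which cycle fast, keep them at high levels.

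Promoter sequence was looked up because E2F sites are the best-known shared feature of these genes. RefSeq promoter windows on GRCm38.p6, from 250 bases before to 50 bases after a gene's start, were present for 35 of the 43 genes; Gmnn, Mcm4, Gins1, Gins2, Gins4, Rfc2, Prim2 and Pole had no entry. The search took any of TTTCCCGC, TTTCGCGC, TTTGCCGC and TTTGGCGC on either strand as E2F letters, and matches may overlap each other. Such letters stood in 14 of the 35 genes (40.0%), against 704 of the 27025 genes with a window (2.61%). The 250 bases before the start are shown for 5 genes that differ in these letters, with every match in capitals: Mcm6 and Mcm5, with the most matches before the start, Cdc25a with a single one, and Mcm10 and Rrm1, which have none and were among the 4 genes lower in 3 comparisons below, with Gins4 and Rpa2.
Mcm6, chr1:128359706-128359955, minus strand: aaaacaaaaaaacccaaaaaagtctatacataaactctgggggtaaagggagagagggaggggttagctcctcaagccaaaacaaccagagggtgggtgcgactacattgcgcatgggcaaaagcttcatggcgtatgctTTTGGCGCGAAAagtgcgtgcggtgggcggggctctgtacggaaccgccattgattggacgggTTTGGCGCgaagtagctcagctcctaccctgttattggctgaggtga
Mcm5, chr8:75109259-75109508, plus strand: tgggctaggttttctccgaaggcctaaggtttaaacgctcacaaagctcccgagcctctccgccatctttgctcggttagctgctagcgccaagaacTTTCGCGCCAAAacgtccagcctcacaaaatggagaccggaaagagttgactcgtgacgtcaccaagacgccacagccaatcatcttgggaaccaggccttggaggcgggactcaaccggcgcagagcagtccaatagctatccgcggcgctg
Cdc25a, chr9:109875329-109875578, plus strand: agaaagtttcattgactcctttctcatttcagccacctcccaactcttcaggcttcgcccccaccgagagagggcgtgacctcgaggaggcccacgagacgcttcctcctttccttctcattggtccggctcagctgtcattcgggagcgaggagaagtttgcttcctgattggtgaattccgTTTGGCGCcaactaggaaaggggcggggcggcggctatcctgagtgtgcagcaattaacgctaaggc
Mcm10, chr2:5012792-5013041, minus strand: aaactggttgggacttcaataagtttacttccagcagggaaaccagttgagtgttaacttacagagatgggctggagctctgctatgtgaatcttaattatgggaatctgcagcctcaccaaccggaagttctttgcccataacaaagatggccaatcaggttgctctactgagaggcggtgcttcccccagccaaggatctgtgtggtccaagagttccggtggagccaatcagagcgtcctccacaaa
Rrm1, chr7:102441445-102441694, plus strand: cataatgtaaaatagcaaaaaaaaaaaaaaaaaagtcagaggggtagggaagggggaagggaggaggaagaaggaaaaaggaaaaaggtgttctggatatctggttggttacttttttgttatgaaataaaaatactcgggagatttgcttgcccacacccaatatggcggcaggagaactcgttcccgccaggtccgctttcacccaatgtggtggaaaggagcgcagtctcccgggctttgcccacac
The first match lay at position -110 from the start in Mcm6, -153 in Mcm5 and -67 in Cdc25a. In Mcm5, a match on each strand overlaps the other, and the first pair of matches in Mcm6 overlaps likewise.

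These letters were spread unevenly over the roles. They stood in 7 of the 10 licensing genes with an entry (Orc1, Cdc6, Cdt1, Mcm3, Mcm5, Mcm6 and Mcm7) and in 4 of the 8 polymerase and joining genes (Pola1, Pold1, Pole2 and Lig1). They stood in 1 of 3 helicase activation genes (Gins3), 1 of 8 clamp and single-strand binding genes (Rfc3) and 0 of 4 nucleotide supply genes, and of the S phase regulators in Cdc25a alone. All windows of E2f1, Cdc6 and Mcm7 lie wholly inside the annotated gene. That of E2f1, at chr2:154569377-154569676, does not reach the annotated start of the gene at 154569892 on the minus strand. Absence of the letters in it therefore says nothing about the bases before that start. CCAAT, the letters bound by NF-Y, stood in 23 of the 35 genes (65.7%), against 41.1% of all genes, and TTTGAA, a core of the cell cycle element called CHR, in 5 of 35 (14.3%), against 20.2%. A match describes these letters in this window and is no evidence of binding.

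Values are FPKM, which scales fragments by transcript length and library size, so levels can be compared between genes of different length. Sequencing depth is unknown, which leaves the precision of single values unknown. Tex10 was 403 and 378 FPKM in day 2 OE, against 119 and 145 FPKM in day 2 EV. At day 6 it was 259 and 269 FPKM in OE, against 65.7 and 81.5 FPKM in EV. With dTAG13 it was 45.2 and 36.5 FPKM, against 61.7 and 56.8 FPKM with DMSO. The OE libraries were thus above EV at both days, while Tex10 RNA does not measure the amount of a degraded protein.

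The first dTAG13 library stood apart from the other 11. It listed 2008 genes (15.5% of the table) at 0, where the others listed 18 to 127, although none of the 43 replication genes was at 0 in it. Itgb3, which encodes the sorting marker CD61, was listed at 0 in that library and was 0.734 to 4.39 FPKM in the others. Results of the dTAG13 comparison are therefore given with and without that library. Of the marker lists, 8 of 9 germ cell genes were measured and summed to 144 to 274 FPKM over the 12 libraries, and all 6 pluripotency genes summed to 1536 to 2097 FPKM. Summed levels stayed at or below 6.39 FPKM for the 2 endoderm genes measured, 12.4 FPKM for the 4 mesoderm genes, 14.3 FPKM for the 2 trophoblast genes and 0.834 FPKM for the fibroblast gene. They were higher for the 3 neural genes measured, at 46.3 to 129 FPKM, and for the 3 formative or primed genes, at 21.7 to 89.8 FPKM.

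The replication genes were strongly expressed in every group. Rrm2, the small subunit of ribonucleotide reductase, was the highest, at 337 to 697 FPKM with a median of 482 FPKM over the 12 libraries. Rfc5, a clamp loader subunit, followed with a median of 288 FPKM. The helicase ring genes spread over a wide range, with medians of 275 FPKM for Mcm6, 270.4 FPKM for Mcm3, 263 FPKM for Mcm7, 238 FPKM for Mcm5, 175 FPKM for Mcm2 and 125 FPKM for Mcm4. The catalytic polymerase subunits were far lower, with medians of 18.5 FPKM for Pola1 and 25.7 FPKM for Pole, while Pold1 stood at 125 FPKM. E2f1, the transcription factor, was the lowest, at 0.283 to 3.33 FPKM, and reached 1 FPKM in 11 of the 12 libraries.

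Summed over the 43 genes, replication RNA made up 0.893% and 0.759% of all FPKM in the dTAG13 libraries, against 0.945% and 0.971% in the DMSO libraries. The share was 0.849% and 0.854% in day 6 OE, against 0.943% and 0.939% in day 2 OE. In EV it was 0.857% and 0.920% at day 6, against 0.924% and 0.934% at day 2. Each of these pairs of groups did not overlap, and the lowest of the 12 values belonged to the second dTAG13 library. In bulk RNA of this kind, fewer cells in S phase and less RNA per cell cannot be told apart.

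**Figure D1:**
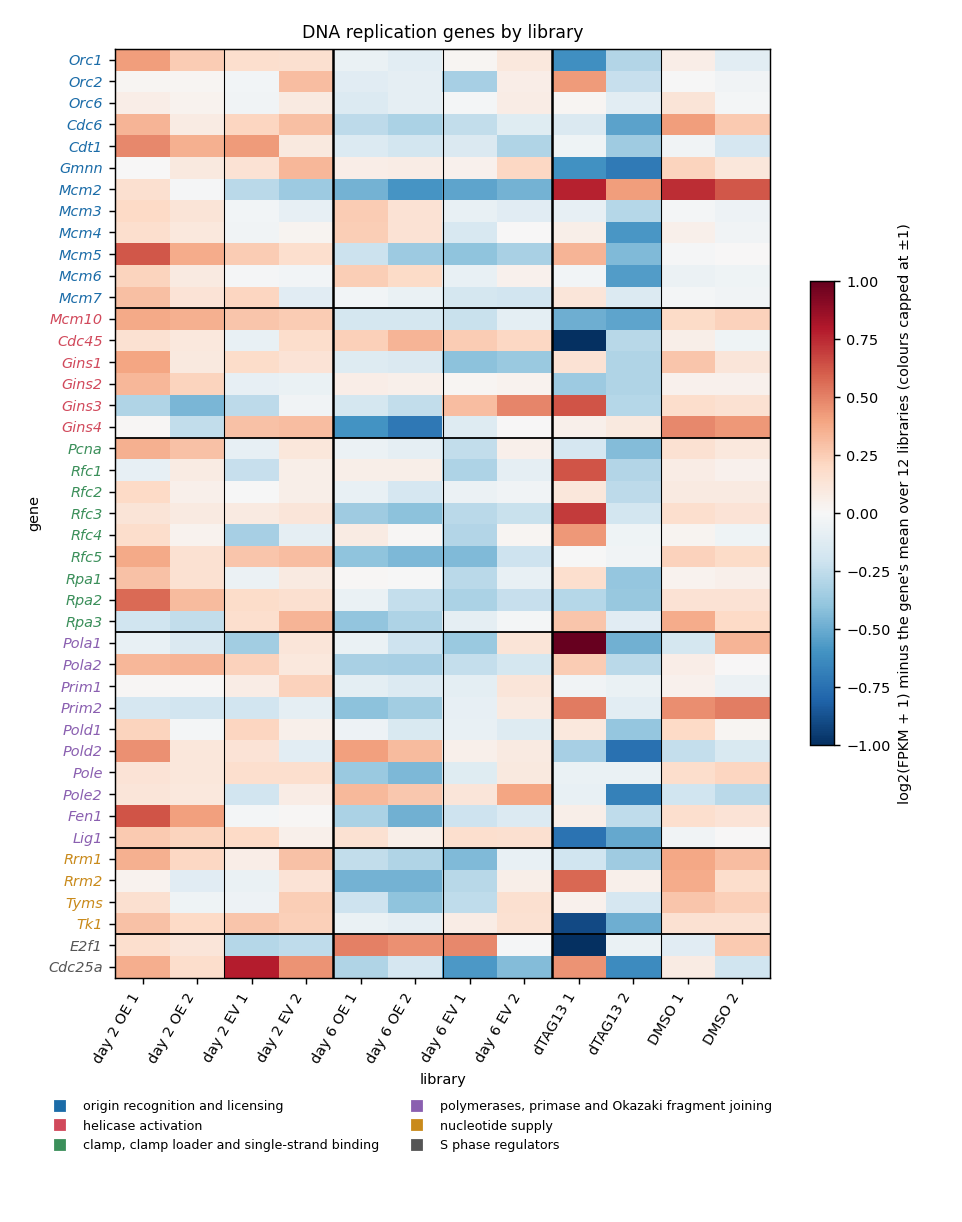
Levels of the 43 replication genes (rows, grouped by role) in the 12 libraries (columns). Colour gives log2(FPKM + 1) minus the gene's mean over the libraries, red above and blue below, with colours capped at 1 in either direction. Gmnn, Mcm10, Lig1 and Tk1 are blue in both dTAG13 libraries, whereas Pola1, Rfc1 and Rfc3 are red in the first of them alone.

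Changes were tested with limma on log2(FPKM + 1), over all 12059 genes and with all 6 groups in 1 model, and a gene was called where its p-value, adjusted by the Benjamini-Hochberg method, was below 0.05. Fold changes on this scale understate the change of genes with low values. Among the replication genes, 25 of 43 differed somewhere among the 6 groups, against 52.1% of all genes tested. The 25 comprised 7 of 12 licensing genes, 5 of 6 helicase activation genes, 4 of 9 clamp and single-strand binding genes, 6 of 10 polymerase and joining genes, 3 of 4 nucleotide supply genes and 0 of 2 S phase regulators. The share is close to that of all genes, so it does not set the replication genes apart.

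With dTAG13, 9 of the 43 replication genes were lower than with DMSO and 0 were higher. Among all genes tested, 8.21% were lower and 4.01% higher. The 9 were Tk1, Gmnn, Mcm10, Cdc6, Rrm1, Lig1, Rpa2, Gins4 and Gins2. They covered 3 of the 6 helicase activation genes and 2 of the 4 nucleotide supply genes, but 2 of the 12 licensing genes and none of Mcm2 to Mcm7. The median log2 change of the 43 genes was -0.24, and that of all genes was -0.13. Both dTAG13 libraries lay below both DMSO libraries in 18 of the 43 genes, against 34.7% of all genes, and above both in 0, against 13.8%.

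Among the licensing genes, Gmnn encodes geminin, which binds Cdt1 and blocks a second round of licensing in the same cycle. It had 129 and 120 FPKM with dTAG13, against 229 and 213 FPKM with DMSO. Both treated libraries lay below every other library of the series, whose lowest value was 197 FPKM. The log2 change was -0.83 (SE 0.10, adjusted p = 0.00178). Cdc6, the loader of the helicase ring, had 34.0 and 25.8 FPKM with dTAG13, against 50.8 and 45.4 FPKM with DMSO, and fell by 0.68 on the log2 scale (SE 0.15, adjusted p = 0.0233). The groups did not overlap, and the second dTAG13 library was the lowest of all 12. Cdt1, the other loader, had 121 and 97.8 FPKM with dTAG13, against 122 and 111 FPKM with DMSO, so its groups overlapped (log2 change -0.10, adjusted p = 0.671). Orc1, the largest subunit of the origin recognition complex, just missed the threshold, at 40.8 and 51.1 FPKM against 66.0 and 58.5 FPKM with DMSO (log2 change -0.44, adjusted p = 0.0541). Orc2 and Orc6 had log2 changes of 0.12 and -0.10 and overlapping groups.

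The helicase ring genes did not pass the threshold in either direction, and the dTAG13 libraries differed from each other. Mcm5 had 302 and 176 FPKM with dTAG13, against 237 and 239 FPKM with DMSO, so the 2 treated libraries lay on opposite sides of the control. Mcm6 had 273 and 189 FPKM with dTAG13, against 267 and 271 FPKM with DMSO. Log2 changes of the 6 ring genes ran from -0.27 (Mcm4) to 0.02 (Mcm7). In the second dTAG13 library all 6 ring genes were below both DMSO libraries.

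Helicase activation genes gave 3 of the 9 calls. Mcm10, which helps the loaded helicase to start unwinding, had 49.9 and 48.3 FPKM with dTAG13, against 80.2 and 82.5 FPKM with DMSO (log2 change -0.72, SE 0.09, adjusted p = 0.00231). The treated libraries were close to each other and below all others, the next of which was 60.1 FPKM in day 6 EV. Gins4, a GINS subunit, had 142 and 147 FPKM with dTAG13, against 192 and 186 FPKM with DMSO (log2 change -0.38, SE 0.11, adjusted p = 0.0441). Gins2 had 121 and 126 FPKM with dTAG13, against 159.7 and 160.1 FPKM with DMSO (log2 change -0.37, SE 0.08, adjusted p = 0.0217). Its groups did not overlap, but 67.3% of its exon bases also lie in Gse1 on the opposite strand, and whether counting used strand is not given in the sources used here. Cdc45, the other helicase partner, had 24.4 and 45.1 FPKM with dTAG13, against 57.0 and 53.2 FPKM with DMSO. Its groups did not overlap either, but the treated libraries were far apart and the change was not called (log2 change -0.71, adjusted p = 0.0651). Gins1 and Gins3 had log2 changes of -0.28 and 0.00 and overlapping groups.

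Of the clamp, clamp loader and single-strand binding genes, Rpa2 alone was called. It encodes the middle subunit of replication protein A, the single-strand binding complex, and had 132 and 123 FPKM with dTAG13, against 178.2 and 178.0 FPKM with DMSO (log2 change -0.48, SE 0.11, adjusted p = 0.0222). Its partners Rpa1 and Rpa3 had log2 changes of -0.15 and -0.20, and in both the first dTAG13 library lay within or above the DMSO values. Pcna had 134 and 111 FPKM with dTAG13, against 168 and 162 FPKM with DMSO, which did not overlap but missed the threshold (log2 change -0.43, adjusted p = 0.0573); the annotation names 2 Pcna pseudogenes, which could share its reads. The 5 clamp loader genes ran from -0.23 (Rfc5) to 0.20 (Rfc4), and 0 of 5 were called. In Rfc1 and Rfc3 the first dTAG13 library was the highest of all 12, at 67.9 and 111 FPKM, where the second stood at 35.5 and 59.8 FPKM.

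Lig1, the ligase that seals Okazaki fragments, was the only called gene among the polymerase, primase and joining genes. It had 61.2 and 71.9 FPKM with dTAG13, against 100.2 and 103 FPKM with DMSO (log2 change -0.61, SE 0.11, adjusted p = 0.00788). Both treated libraries were below all other libraries, the lowest of which was DMSO. Fen1, which trims the flaps before ligation, had 147 and 118 FPKM with dTAG13, against 158 and 155 FPKM with DMSO, with no overlap and no call (log2 change -0.25, adjusted p = 0.195). Among the polymerase subunits the largest changes were 0.31 for Pola1 and -0.34 for Pold2. Pola1, the catalytic subunit of polymerase alpha, had 49.8 and 14.1 FPKM with dTAG13, against 17.7 and 25.7 FPKM with DMSO, so its highest and lowest values in the series were the 2 treated libraries.

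In nucleotide supply, Tk1, the thymidine kinase of the salvage route, showed the largest fall of the 43 genes. It had 56.4 and 75.4 FPKM with dTAG13, against 118.4 and 118.3 FPKM with DMSO (log2 change -0.85, SE 0.13, adjusted p = 0.00399). Both treated libraries were below the other 10, of which the lowest was 99.9 FPKM in day 6 OE. Rrm1, the large subunit of ribonucleotide reductase, had 84.5 and 75.8 FPKM with dTAG13, against 128 and 121 FPKM with DMSO (log2 change -0.63, SE 0.14, adjusted p = 0.0208). Its small-subunit partner Rrm2 had 697 and 485 FPKM with dTAG13, against 605 and 530 FPKM with DMSO, so the groups overlapped and the 2 subunits did not have the same result (log2 change 0.04, adjusted p = 0.898). Whether their changes differ from each other was not tested. Tyms, which makes thymidylate, had 38.9 and 33.4 FPKM with dTAG13, against 45.9 and 44.5 FPKM with DMSO (log2 change -0.32, adjusted p = 0.232). Neither S phase regulator was called. E2f1 had 0.283 and 1.92 FPKM with dTAG13, against 1.82 and 2.67 FPKM with DMSO (log2 change -0.73, adjusted p = 0.177), and Cdc25a, a phosphatase that activates cyclin-dependent kinases, had 30.8 and 14.1 FPKM with dTAG13, against 23.7 and 19.4 FPKM with DMSO.

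**Figure D2:**
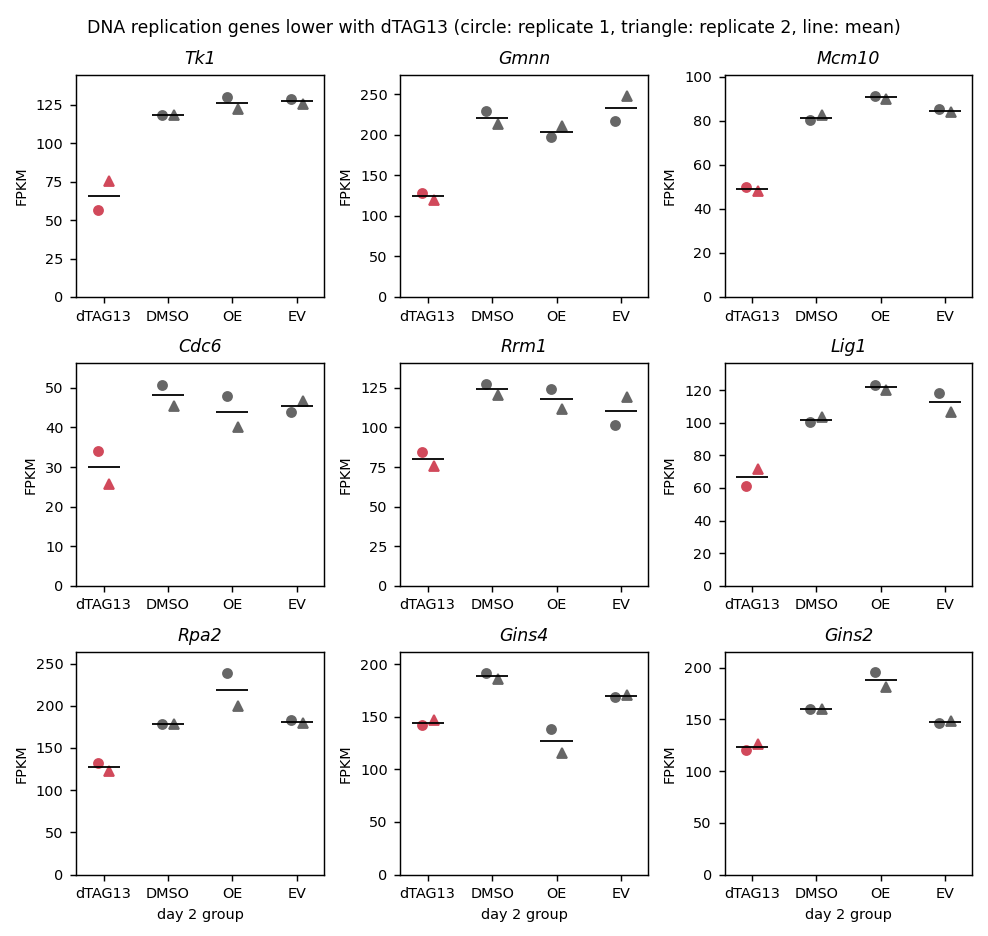
FPKM of the 9 replication genes that were lower with dTAG13, in the 4 day 2 groups. Circles and triangles are the 2 libraries of a group and the line is their mean; in each panel both dTAG13 libraries (red) lie below both DMSO libraries, and in Gins4 the OE libraries are lower still.

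Leaving out the first dTAG13 library raised the count to 23 lower and 0 higher genes, where 17.0% of all genes were then lower and 6.25% higher. The single dTAG13 library left is then assumed to vary like the other groups. Of the 9 genes, 8 were called again, and Gins4 missed the threshold (log2 change -0.36, adjusted p = 0.0526). Tk1 then fell by 0.64, Gmnn by 0.88, Mcm10 by 0.74, Cdc6 by 0.87 and Rrm1 by 0.70 on the log2 scale. All 43 log2 changes were negative without that library, with a median of -0.41, against -0.17 for all genes. The newly called genes included Mcm4 (log2 change -0.59), Mcm6 (-0.50) and Mcm5 (-0.44) of the ring and Prim2 (-0.60), the large primase subunit. Leaving out the second dTAG13 library instead gave 12 lower and 8 higher genes, with all 9 called again, where 33.9% of all genes were lower and 26.2% higher. In all, 12 genes were called with either dTAG13 library left out, of which 8 were lower both times (Cdc6, Gmnn, Mcm10, Gins2, Rpa2, Lig1, Rrm1 and Tk1). The other 4 changed direction with the library used. Mcm5 had a log2 change of -0.44 without the first library and 0.34 without the second, Gins3 -0.45 and 0.46, Rfc3 -0.33 and 0.55, and Cdc25a -0.57 and 0.51. The remaining genes that were higher without the second library were Orc2, Rfc1, Rfc4 and Pola1. Of the 6 ring genes, Mcm4, Mcm5 and Mcm6 changed their call with the library left out, and Mcm2, Mcm3 and Mcm7 were called neither time.

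The call count also depended on the model. With DMSO and dTAG13 alone in the fit, 0 of the 43 genes and 0 of all genes were called by limma, although 10 of the 43 and 1248 of all genes had an unadjusted p below 0.05. Leaving out either DMSO library left 3 called genes, Gmnn, Mcm10 and Tk1. For those fits the share of all genes called was not set beside the count. With median-ratio scaling of the libraries 7 genes were lower and 0 higher, where 4.88% of all genes were lower and 5.49% higher. Beside these results, the summed level of the 3 neural genes measured of 4 listed was 46.3 and 59.0 FPKM with dTAG13, against 79.9 and 77.8 FPKM with DMSO. That of the 3 formative or primed genes measured was 27.2 and 30.5 FPKM, against 45.7 and 48.8 FPKM with DMSO, most of it Dnmt3b. The 8 germ cell genes summed to 274 and 254 FPKM with dTAG13, against 232 and 196 FPKM with DMSO, but moved in both directions. Both dTAG13 libraries lay above both DMSO libraries in Tfap2c and Dppa3. They lay below both in Prdm1, Prdm14, Dnd1 and Kit, and overlapped in Nanos3 and Itgb3. Pax6 was listed at 0 in the first dTAG13 library. The part of such cell mixtures, or of that library's many values at 0, in the changes was not tested.

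Other cell cycle genes give a frame for this comparison. Of 33 further replication genes tested, 5 were lower and 0 higher with dTAG13, led by Mcm8 (log2 change -0.83), Cdc7, the kinase that fires origins (-0.70), and Chaf1b, a histone chaperone subunit (-0.62). None of 14 further nucleotide supply genes was called, of which 2 had an unadjusted p below 0.05 in limma. Among 19 further E2F and S phase entry genes, 5 were lower, led by E2f8 (-1.47), E2f2 (-1.13) and Ccne1, cyclin E1 (-1.04). In that list 2 were higher: Cdkn1a, the kinase inhibitor p21, at a mean of 76.1 FPKM with dTAG13 against 31.0 FPKM with DMSO (log2 change 1.26, SE 0.12, adjusted p = 0.000487), and Rb1, an E2F repressor (1.03). Of 15 mitosis genes, Ccnb2 alone was called (-0.34).

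Between day 2 and day 6, the replication genes called with all 12 libraries in the fit were lower at day 6. In OE, 14 of the 43 were lower and 0 higher, where 14.7% of all genes were lower and 17.5% higher. In EV, 8 were lower and 0 higher, where 10.5% of all genes were lower and 13.3% higher. The median log2 change of the 43 genes was -0.25 in OE, against 0.08 for all genes, and -0.14 in EV, against 0.04. Both day 6 libraries lay below both day 2 libraries in 31 of the 43 genes in OE, against 35.9% of all genes, and above both in 4, against 46.0%. In EV they lay below in 22, against 33.0%, and above in 6, against 39.9%. The lists shared 6 genes, Cdt1, Gins4, Mcm10, Rfc5, Rpa2 and Rrm1, which are 6 of the 14 in OE and 6 of the 8 in EV. The OE and EV comparisons share no library, but both used the same estimate of spread per gene, from all 12 libraries. Their lists are therefore not independent, and the overlap over all genes was not counted.

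Licensing genes made up 5 of the 14 calls in OE and 1 of the 8 in EV. Mcm5 had 205 and 185 FPKM in day 6 OE, against 369 and 310 FPKM in day 2 OE (log2 change -0.79, SE 0.20, adjusted p = 0.0150). In EV it had 181 and 190 FPKM at day 6, against 285 and 269 FPKM at day 2, without overlap but short of the threshold (log2 change -0.58, adjusted p = 0.0678). Day 6 libraries were thus lower than day 2 libraries in OE and in EV. Mcm2 had 138 and 128 FPKM in day 6 OE, against 215 and 191 FPKM in day 2 OE (log2 change -0.60, SE 0.12, adjusted p = 0.00504), and in EV 133 and 139 FPKM at day 6, against 159 and 149 FPKM at day 2 (-0.18, adjusted p = 0.335). The day 6 levels of OE and EV overlapped, and the day 2 levels were higher in OE. Cdt1 had 114 and 110 FPKM in day 6 OE, against 175 and 161 FPKM in day 2 OE (-0.58, adjusted p = 0.0114), and 113 and 102 FPKM in day 6 EV, against 169 and 134 FPKM in day 2 EV (-0.48, adjusted p = 0.0332). OE and EV had about the same level at day 6. Cdc6 (-0.50, adjusted p = 0.0322) and Orc1 (-0.42, adjusted p = 0.0311) were lower at day 6 in OE; in EV their log2 changes were -0.44 and -0.11 and neither was called. Mcm3, Mcm4, Mcm6 and Mcm7 were called in neither OE nor EV, and the log2 changes of Mcm3, Mcm4 and Mcm6 stayed between -0.08 and 0.06, so the 6 ring genes did not change as a unit. Gmnn, the licensing inhibitor, was not called either (0.02 in OE and -0.11 in EV).

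Helicase activation genes gave Mcm10, Gins4 and Gins1. Mcm10 had 61.9 and 62.0 FPKM in day 6 OE, against 91.4 and 90.0 FPKM in day 2 OE (log2 change -0.54, SE 0.09, adjusted p = 0.00204). In EV it had 60.1 and 65.7 FPKM at day 6, against 85.4 and 83.9 FPKM at day 2 (-0.42, SE 0.09, adjusted p = 0.0100). All 4 day 6 libraries lay below all 4 day 2 libraries. Gins4 fell by 0.53 on the log2 scale in OE (SE 0.11, adjusted p = 0.00420) and by 0.37 in EV (SE 0.11, adjusted p = 0.0326). Gins1, another GINS subunit, had 31.7 and 32.8 FPKM in day 6 EV, against 48.6 and 46.8 FPKM in day 2 EV (-0.55, SE 0.16, adjusted p = 0.0328), and in OE its log2 change was -0.38 (adjusted p = 0.0966). Gins3 had the opposite sign in EV, at 29.9 and 33.9 FPKM in day 6 EV against 19.8 and 23.4 FPKM in day 2 EV, without a call (0.54, adjusted p = 0.141); it was called higher there without the first dTAG13 library (adjusted p = 0.00195) and with median-ratio scaling (0.61, adjusted p = 0.0364). Cdc45 had 0.16 in OE and 0.18 in EV.

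Among the clamp and single-strand binding genes, Rfc5 and Rpa2 were lower at day 6 in both OE and EV. Rfc5 had 205 and 199.5 FPKM in day 6 OE, against 354 and 303 FPKM in day 2 OE (log2 change -0.69, SE 0.11, adjusted p = 0.00102). In EV it had 200.1 and 236 FPKM at day 6, against 330 and 338 FPKM at day 2 (-0.62, SE 0.11, adjusted p = 0.00303). Day 6 and day 2 did not overlap in OE or in EV, while Rfc1, Rfc2, Rfc3 and Rfc4 were called in neither. Exons of Rfc5 share 10.7% of their bases with Wsb2 on the opposite strand. Rpa2 fell by 0.59 on the log2 scale in OE (SE 0.11, adjusted p = 0.00266) and by 0.45 in EV (SE 0.11, adjusted p = 0.0150). Pcna had 145 and 142 FPKM in day 6 OE, against 193 and 185 FPKM in day 2 OE (-0.39, SE 0.13, adjusted p = 0.0403), and overlapped between days in EV (-0.11, adjusted p = 0.572).

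Polymerase and joining genes were called in OE alone. Fen1 had 113 and 101 FPKM in day 6 OE, against 218 and 188 FPKM in day 2 OE (log2 change -0.92, SE 0.12, adjusted p = 0.000515), the largest fall of a replication gene in OE. In EV it had 122 and 128 FPKM at day 6, against 138 and 142 FPKM at day 2 (-0.16, adjusted p = 0.378). The difference between these values, which is also the difference between the OE effects at the 2 days, missed the threshold (-0.75, SE 0.17, adjusted p = 0.120). Exons of Fen1 share 84.2% of their bases with Tmem258 and Gm10143 on the opposite strand, so its reads cannot be told apart from theirs unless counting used strand. Pola2, the regulatory subunit of polymerase alpha, had 62.6 and 62.3 FPKM in day 6 OE, against 98.9 and 99.8 FPKM in day 2 OE (-0.66, SE 0.15, adjusted p = 0.00791), and in EV -0.38 (adjusted p = 0.0967). Pole, the catalytic subunit of polymerase epsilon, had 18.2 and 17.1 FPKM in day 6 OE, against 26.3 and 25.8 FPKM in day 2 OE (-0.53, SE 0.13, adjusted p = 0.0103), and in EV -0.18 (adjusted p = 0.351). Pold1, Pold2, Prim1, Prim2, Pola1, Pole2 and Lig1 were called in neither OE nor EV.

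In nucleotide supply, Rrm1 had 81.5 and 78.4 FPKM in day 6 OE, against 124 and 112 FPKM in day 2 OE (log2 change -0.56, SE 0.14, adjusted p = 0.0126). In EV it had 71.4 and 92.1 FPKM at day 6, against 102 and 119 FPKM at day 2 (-0.44, SE 0.14, adjusted p = 0.0453). The days did not overlap in OE or in EV. All 4 genes of this role had negative log2 changes in both, from -0.32 (Tk1) to -0.56 (Rrm1) in OE, and Rrm2, Tyms and Tk1 were not called in either. Cdc25a had 14.6 and 16.3 FPKM in day 6 EV, against 39.1 and 30.9 FPKM in day 2 EV (-1.12, SE 0.29, adjusted p = 0.0213), the largest change among the 43 genes in any comparison. That call was lost when any of the compared EV libraries was left out. In OE Cdc25a had 17.9 and 19.8 FPKM at day 6, against 29.0 and 25.3 FPKM at day 2, without overlap and without a call (-0.50, adjusted p = 0.220). E2f1 had 0.34 in OE and 0.50 in EV and was not called.

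**Figure D3:**
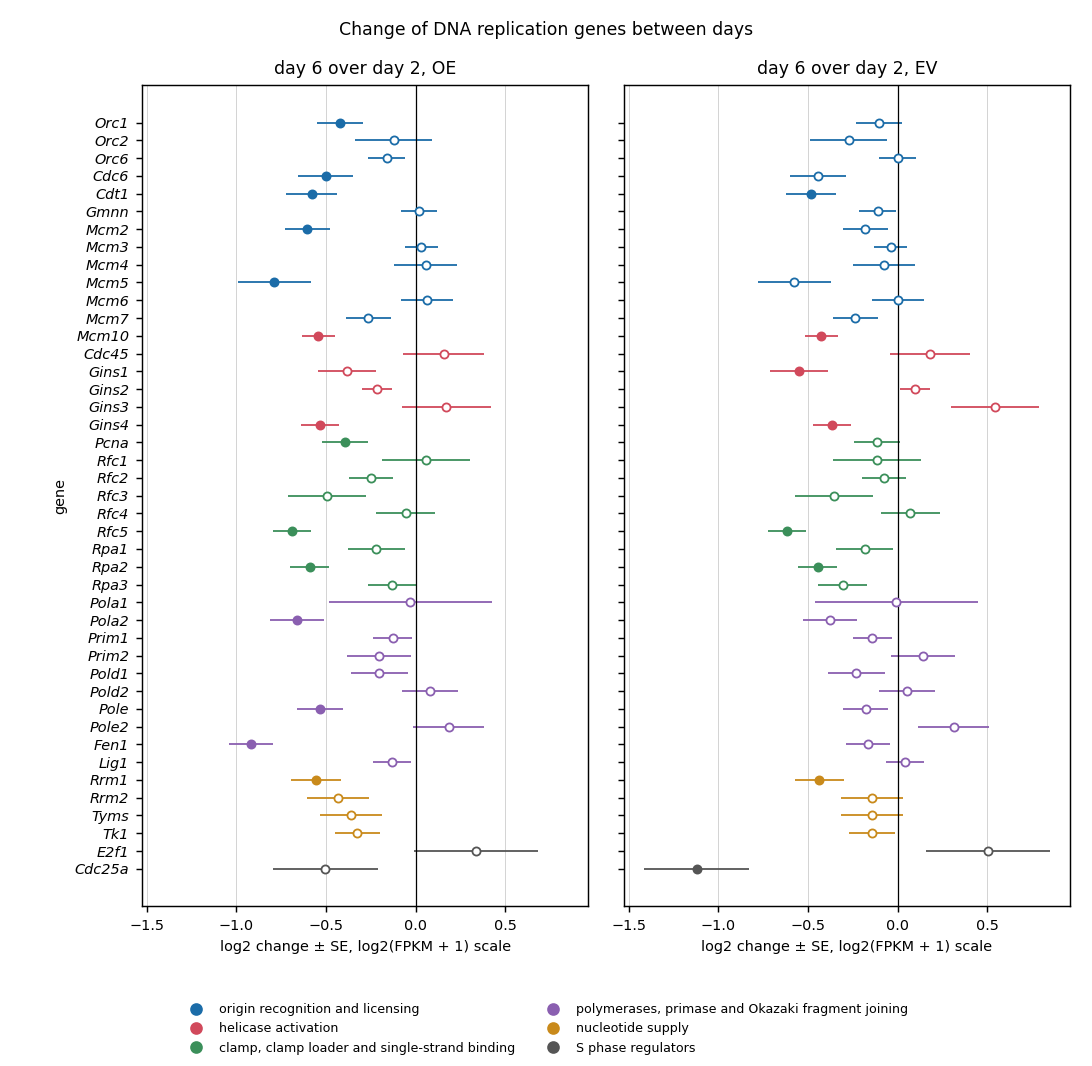
Log2 change of each replication gene at day 6 over day 2 in OE (left) and EV (right), on the log2(FPKM + 1) scale, with standard errors from the model. Filled points passed the threshold and open points did not; every filled point lies left of 0, with Fen1 farthest left in OE and Cdc25a farthest left in EV.

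These counts moved with single libraries. Without the first dTAG13 library, which is in neither comparison but enters the shared estimate of spread, 23 genes were lower and 0 higher in OE, where 25.8% of all genes were lower and 33.3% higher. In EV 13 were then lower and 3 higher, where 22.8% of all genes were lower and 29.4% higher. The 3 were Gins3 (log2 change 0.54), E2f1 (0.50, adjusted p = 0.0298) and Pole2 (0.31, adjusted p = 0.0490). Leaving out a compared library gave 6 (day 2 OE 1), 12 (day 2 OE 2), 8 (day 6 OE 1) and 5 (day 6 OE 2) calls in OE, and in EV 1 call without replicate 1 of either day and 3 without replicate 2 of either day. Shares over all genes were not set beside the counts without a compared library, so those counts do not describe the replication genes alone. Neural genes summed to 50.6 and 48.4 FPKM in day 6 OE, against 129 and 123 FPKM in day 2 OE, and to 70.0 and 66.8 FPKM in day 6 EV, against 105 and 91.9 FPKM in day 2 EV, nearly all of it Tubb3. Formative or primed genes summed to 24.8 and 21.7 FPKM in day 6 OE, against 89.8 and 83.0 FPKM in day 2 OE. In EV they summed to 37.3 and 40.4 FPKM at day 6, against 83.5 and 76.9 FPKM at day 2. Dnmt3b, nearly all of the day 2 sums, and Fgf5 were lower at day 6 without overlap in OE and in EV. Otx2 went the other way, at 11.7 and 9.997 FPKM in day 6 OE, against 2.51 and 2.57 FPKM in day 2 OE. In EV Otx2 had 14.3 and 15.3 FPKM at day 6, against 3.21 and 3.93 FPKM at day 2. Germ cell genes summed to 243 and 233 FPKM in day 6 OE, against 191 and 157 FPKM in day 2 OE, and to 159 and 144 FPKM in day 6 EV, against 205 and 226 FPKM in day 2 EV. They moved in both directions. In OE, day 6 lay above day 2 without overlap in Prdm14, Kit and Itgb3, and below it in Nanos3, Dnd1 and Dppa3. In EV, day 6 lay above in Prdm14, Dnd1, Kit and Itgb3, and below in Prdm1, Tfap2c, Nanos3 and Dppa3. The part of these levels in the changes was not tested.

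Related gene lists moved in both directions between the days. Of the 33 further replication genes, 10 were lower and 1 higher at day 6 in OE, led by Chtf18 (log2 change -1.24), Recql4 (-0.92) and Pole3 (-0.81), with Cdc7 higher (0.54). In EV 7 were lower and 0 higher, led by Asf1a (-1.08), Rnaseh2c (-0.88) and Pole3 (-0.75). Of the 14 further nucleotide supply genes, 5 were lower in OE, led by Nme1 (-1.21), Gart (-0.75) and Impdh2 (-0.71), and 2 were higher, Rrm2b (0.79) and Tk2 (0.63). In EV 6 were lower, led by Dut (-0.96), Nme1 (-0.85) and Paics (-0.61), and Tk2 was higher (0.59). The 19 further E2F and S phase entry genes gave 6 lower and 5 higher in OE. The lower were led by Ccne1 (-1.70), E2f8 (-1.45) and E2f4 (-1.01), and the higher by Rbl1 (1.31), E2f5 (1.19) and Cdkn1a (1.01). In EV 5 were lower and 0 higher, led by Tfdp1 (-1.44), Ccne1 (-1.18) and E2f8 (-0.90). Mitosis genes were split in OE, with Cdc20 (-0.97) and Aurka (-0.31) lower and Cenpf (0.69), Top2a (0.59) and Ccnb2 (0.30) higher, and Cdc20 was the only one called in EV (-0.87).

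Of the genes lower with dTAG13, 5 were also lower at day 6 in OE: Cdc6, Gins4, Mcm10, Rpa2 and Rrm1, which are 5 of the 9 and 5 of the 14. With the EV list the overlap was 4 of the 9 and 4 of the 8, namely Gins4, Mcm10, Rpa2 and Rrm1. The libraries of these comparisons are not shared, but the estimate of spread per gene is. These lists are therefore not independent either, and their overlap over all genes was not counted. Tk1, Gmnn, Lig1 and Gins2 were called with dTAG13 and in neither day comparison with all 12 libraries in the fit. This split depended on the fit. Tk1 and Gins2 were among the genes lower at day 6 in OE without the first dTAG13 library (log2 changes -0.32 and -0.22). Lig1 and Gins2 lost their dTAG13 call with median-ratio scaling. E2F letters stood in 2 of the 6 dTAG13 genes with a promoter entry (Cdc6 and Lig1), 4 of 12 genes lower at day 6 in OE (Cdc6, Cdt1, Mcm5 and Orc1) and 2 of 6 in EV (Cdc25a and Cdt1).

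OE against EV changed few replication genes. At day 2, 0 of 43 passed the threshold in limma, where 0.440% of all genes were higher and 0.406% lower, and 8 of 43 had an unadjusted p below 0.05, against 12.3% of all genes. At day 6, 1 gene was lower, Gins4, and 0 were higher, where 1.79% of all genes were lower and 1.92% higher; 4 had an unadjusted p below 0.05, against 18.0%. Both OE libraries lay above both EV libraries in 17 genes at day 2, against 31.1% of all genes, and below both in 7, against 22.6%. At day 6 they lay above in 10, against 39.3% of all genes, and below in 15, against 29.5%. The median log2 change of the 43 genes was 0.10 at day 2, against 0.04 for all genes, and -0.02 at day 6, against 0.05.

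Gins4 had 90.5 and 83.4 FPKM in day 6 OE, against 125 and 137 FPKM in day 6 EV (log2 change -0.59, SE 0.11, adjusted p = 0.0189). At day 2 it had 138 and 115 FPKM in OE, against 168 and 170 FPKM in EV, without overlap and short of the threshold (-0.42, SE 0.11, adjusted p = 0.123). OE was below EV at both days. The call at day 6 was lost when any of the 4 compared libraries was left out. Gins4 lies at chr8:23226616-23237659 on mm10. Of its nearest 4 tested genes on each side, 7 of 8 had the same sign as Gins4 at each day, with a median log2 change of -0.35 at day 2 and -0.47 at day 6. The other GINS gene with a large change was Gins3, at 21.1 and 20.1 FPKM in day 6 OE, against 29.9 and 33.9 FPKM in day 6 EV (-0.61, SE 0.25, adjusted p = 0.233).

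At day 2, the genes nearest to the threshold stood on both sides. Fen1 had 218 and 188 FPKM in day 2 OE, against 138 and 142 FPKM in day 2 EV (log2 change 0.53, SE 0.12, adjusted p = 0.0967). Gins2 had 195 and 181 FPKM in day 2 OE, against 147 and 149 FPKM in day 2 EV (0.35, SE 0.08, adjusted p = 0.104). In both genes OE lay above EV, and both carry the exon overlaps given above. Rpa3, the small subunit of replication protein A, had 82.2 and 79.4 FPKM in day 2 OE, against 106 and 120 FPKM in day 2 EV (-0.47, SE 0.14, adjusted p = 0.166), below EV while its partner Rpa2 had 238 and 200.2 FPKM against 183 and 179 FPKM (0.27, adjusted p = 0.345). In the remaining roles the largest log2 changes at day 2 were 0.39 for Mcm2, 0.41 for E2f1 and 0.10 for Rrm1, with adjusted p of 0.209, 0.765 and 0.893. At day 6 they were 0.29 for Mcm3, -0.30 for Rpa3, -0.40 for Pole, -0.36 for Rrm2 and 0.27 for Cdc25a, with adjusted p from 0.126 to 0.695. All 4 nucleotide supply genes had negative log2 changes at day 6 (median -0.23), with 0 of 4 called.

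The difference between the OE effects at day 6 and day 2 was called for 0 of the 43 genes, where 0.0663% of all genes were higher and 0.166% lower, and 3 of 43 had an unadjusted p below 0.05 in limma, against 10.8% of all genes. These were Fen1, Mcm2 (log2 difference -0.42, adjusted p = 0.419) and Gins2 (-0.32, adjusted p = 0.350). In the other roles the largest differences were 0.62 for Cdc25a, -0.37 for Gins3, -0.29 for Rrm2 and -0.28 for Pcna, with adjusted p from 0.661 to 0.796. Without the first dTAG13 library, 5 genes were called at day 2 (Mcm2, Gins2 and Fen1 higher, Gins4 and Rpa3 lower), where 8.04% of all genes were higher and 6.02% lower. Likewise, 8 were called at day 6 (2 higher, 6 lower), where 14.4% of all genes were higher and 11.0% lower, and 1 gene, Fen1, for the difference, where 5.57% were higher and 5.56% lower. With median-ratio scaling, Rpa3 was lower and Fen1 higher at day 2, where 0.596% of all genes were higher and 0.844% lower, and Gins4 and Rpa3 were lower at day 6, where 1.99% were higher and 3.09% lower.

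**Figure D4:**
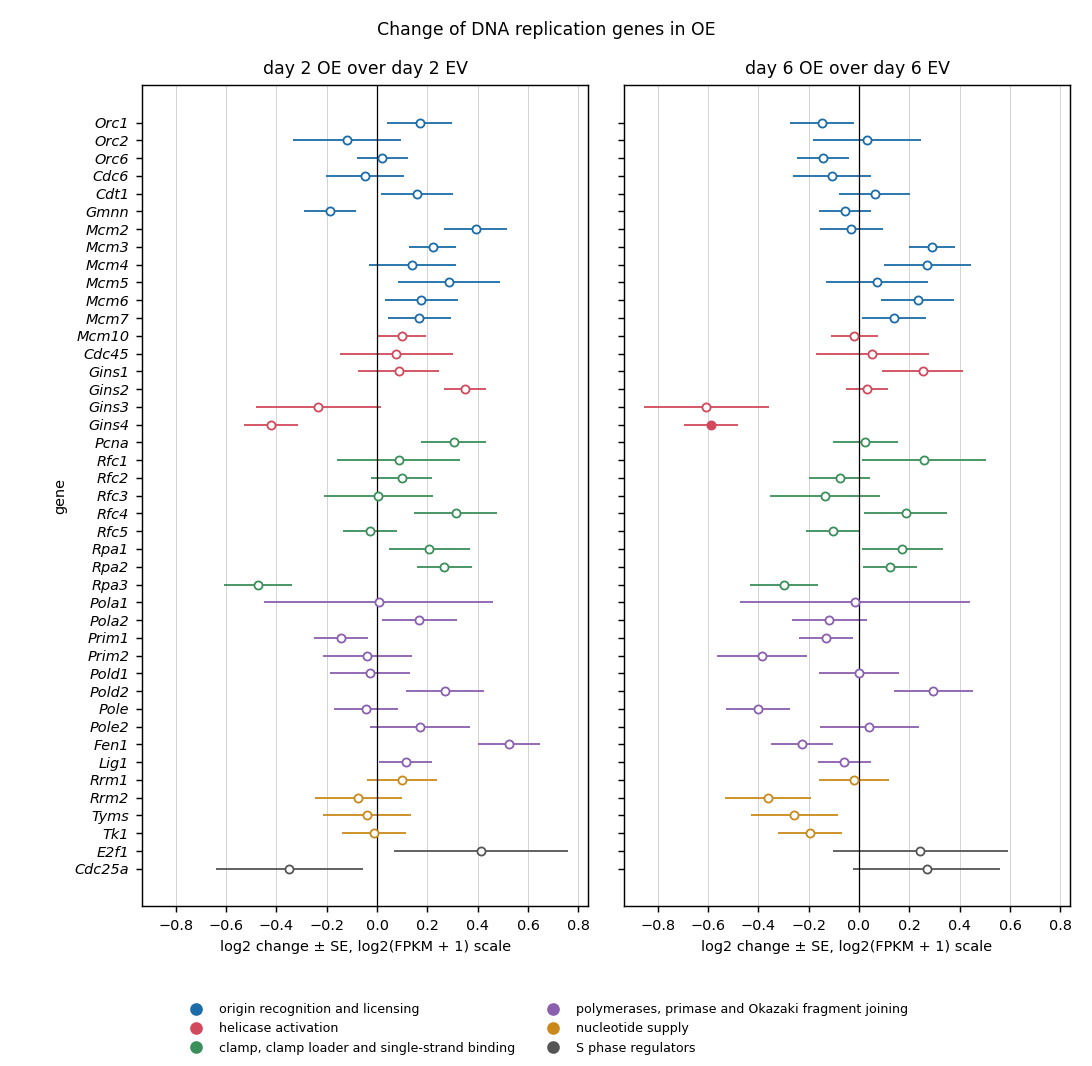
Log2 change of each replication gene in OE over EV at day 2 (left) and day 6 (right), on the log2(FPKM + 1) scale, with standard errors from the model. The filled point, Gins4 at day 6, passed the threshold and open points did not; Gins4 and Rpa3 lie left of 0 on both days.

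Among related genes, OE was lower than EV at day 2 in Cdkn1a, at a mean of 23.0 FPKM in OE and 38.3 FPKM in EV (log2 change -0.71, SE 0.12, adjusted p = 0.0321), and higher in Aurka (0.56, adjusted p = 0.0321). At day 6 Tipin, a fork protection gene, was lower (-0.57, adjusted p = 0.0471), and E2f6 (1.04, adjusted p = 0.0200) and Aurka (0.43, adjusted p = 0.0383) were higher. No other gene of the 4 related lists passed in either comparison. Neural genes summed to 129 and 123 FPKM in day 2 OE, against 105 and 91.9 FPKM in day 2 EV, and to 50.6 and 48.4 FPKM in day 6 OE, against 70.0 and 66.8 FPKM in day 6 EV. Germ cell genes summed to 191 and 157 FPKM in day 2 OE, against 205 and 226 FPKM in day 2 EV, and to 243 and 233 FPKM in day 6 OE, against 159 and 144 FPKM in day 6 EV. At day 2 Prdm1, Prdm14, Tfap2c and Nanos3 were lower in OE without overlap, and Dnd1, Dppa3 and Kit were higher. At day 6 Prdm14, Tfap2c, Dppa3, Kit and Itgb3 were higher in OE without overlap, and Nanos3 was lower. Formative or primed genes summed to 89.8 and 83.0 FPKM in day 2 OE, against 83.5 and 76.9 FPKM in day 2 EV, and to 24.8 and 21.7 FPKM in day 6 OE, against 37.3 and 40.4 FPKM in day 6 EV. At day 2 nearly all of that sum was Dnmt3b, which overlapped between OE and EV. At day 6 Dnmt3b, Otx2 and Fgf5 were each lower in OE without overlap. The part of these levels in the OE changes was not tested.

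DMSO libraries and day 2 EV libraries are a pair of controls of the same day, and the labels do not say whether they are the same cell line. Tex10 itself was 61.7 and 56.8 FPKM with DMSO, against 119 and 145 FPKM in day 2 EV. Among the replication genes 1 was called higher, Mcm2, and 0 lower, where 0.249% of all genes were higher and 0.141% lower with DMSO. It had 321 and 296 FPKM with DMSO, against 159 and 149 FPKM in day 2 EV (log2 change 0.996, SE 0.12, adjusted p = 0.0104). With dTAG13 it had 328 and 257 FPKM, so all 4 libraries of that pair lay above the other 8. Mcm2 lies at chr6:88883474-88898780 on mm10. All 8 of its nearest tested neighbours were also higher with DMSO than in EV, by 0.54 to 1.33 with a median of 0.80, on the log2 scale. Leaving out any 1 of the 4 compared libraries ended the call, with log2 changes from 0.94 to 1.06. The largest other changes by role were 0.63 for Prim2 (adjusted p = 0.285), -0.68 for Cdc25a (adjusted p = 0.548), 0.31 for Gins3, 0.24 for Rrm2 and 0.20 for Rfc4, 4 of 43 had an unadjusted p below 0.05, against 8.92% of all genes, and the median over the 43 genes was 0.03, as for all genes. Of the 4 related lists 0 genes were called by limma, of which 3 further replication, 3 further nucleotide supply, 3 E2F and 4 mitosis genes had an unadjusted p below 0.05.

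**Figure D5:**
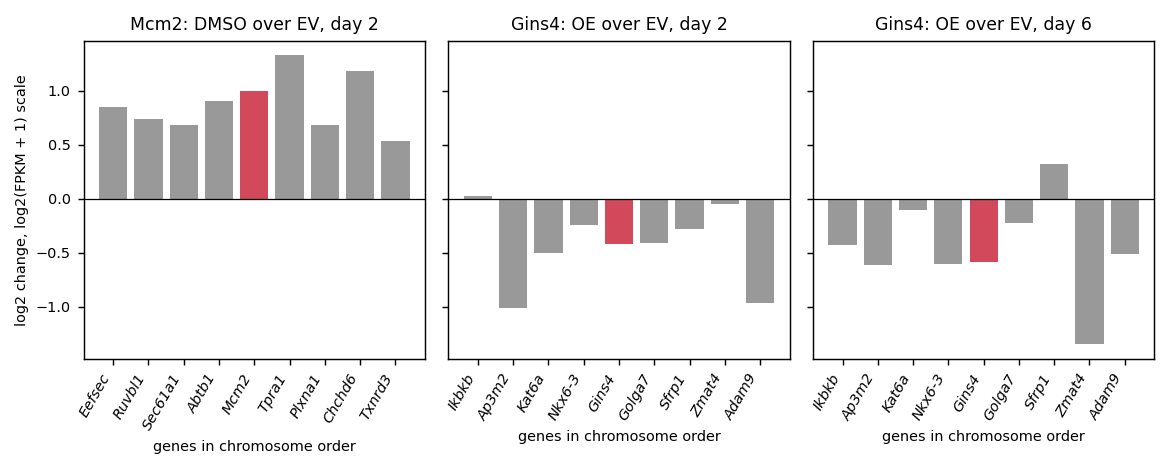
Log2 change of Mcm2 and Gins4 (red) and of their 4 nearest tested genes on each side (grey), in chromosome order and on the log2(FPKM + 1) scale. All 8 neighbours of Mcm2 are higher with DMSO than in EV, and 7 of 8 neighbours of Gins4 are lower in OE than in EV at each day.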

How the data were processed

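Poly(A)-enriched RNA was sequenced from 12 libraries in 6 groups of 2. Reads were processed with FastQC 0.10.1, Trim Galore 0.6.3, cutadapt, STAR 2.7.6a and Cufflinks 2.2.1 on mm10, per the submitters' processing notes. The authors deposited FPKM per gene to which 1 appears to have been added, since 90.1% of values from 1.1 to 2 carry 7 or more digits and 0% of those from 2 to 10 do; 1 was subtracted here. FPKM hold no counts, so depth and counting error are unknown; summed FPKM was 550230 to 673440 per library, and whether counting used strand is not given in the sources used here.

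Genes with an FPKM of at least 1 in at least 2 libraries entered 1 linear model on log2(FPKM + 1) of the deposited values, fitted in limma (version 3.58.1, under R 4.3.3) with 6 group means, 6 residual degrees of freedom, a trended prior variance and Benjamini-Hochberg adjustment over all 12059 genes. Figures were drawn with matplotlib 3.10.9 in Python 3.11.15. Groups came from the labels; 1 title spells dTAG as dATG, and the treatment field was used. Every replication gene past the threshold and, in each role, the gene with the largest change was named. Of the related lists, up to 3 genes per direction were named. The members and lists were chosen with earlier results of these data known. The fitting code was tested on simulated data. Alternatives were another pseudocount, no filter on low values, median-ratio scaling, fits of the compared groups alone, a replicate block, and leaving out each library in turn.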

Additional observations from a re-analysis of the deposited data

How the results depend on the processing

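Counts of replication genes called depended on how the spread was estimated, and no gene called with all libraries in the 6-group fit changed sign under any alternative tried. Genes called under an alternative alone could: for dTAG13, Mcm5, Gins3, Rfc3 and Cdc25a were called lower without the first dTAG13 library and higher without the second. With median-ratio scaling, the OE effect was called in 2 genes at day 2 and in 2 at day 6, and the difference between them in 1; for dTAG13 it gave 7 genes, with Gins2, Gins4 and Lig1 lost and Pcna gained. That scaling moved the split over all genes for dTAG13 to 664 higher and 590 lower, against 483 higher and 990 lower in the deposited scale, and the median of all genes to -0.07, with the replication genes at -0.18. With the compared groups alone in the fit, OE gave 3 calls at day 2 (5.03% of all genes higher and 4.90% lower). At day 6 it gave 8 (16.7% and 12.3%), and the difference gave 1 (4.90% and 4.82%). For dTAG13 there were 0 calls (0% and 0%). Day 6 over day 2 gave 14 in EV (25.5% and 19.2%) and 22 in OE (35.4% and 27.2%). DMSO over EV gave 2 (1.68% and 0.597%). Shares in brackets are over all genes tested, higher first. The cause of these counts was not tested.

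Leaving out 1 library at a time gave 0 to 5 calls for OE at day 2, 0 to 8 for OE at day 6, 0 to 1 for their difference, 3 to 23 for dTAG13, 1 to 16 for day 6 over day 2 in EV, 5 to 23 in OE, 0 to 3 for DMSO over EV and 15 to 37 for any difference among the 6 groups. The highest of these counts came without the first dTAG13 library, and leaving out the second gave the same count or fewer. Where shares over all genes are given above for the fit without the first dTAG13 library, they rose as well. Where such shares are given, the upper ends of these ranges are therefore not particular to the replication genes. For most other fits without 1 library, shares over all genes were not set beside the counts, so the lower ends cannot be judged. A pseudocount of 0.1 and no filter left each count within 1 of its value.

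The labels do not say whether libraries with the same replicate number are paired, and they were not treated as pairs. Deviations of same-numbered libraries correlated between groups at -0.13 to 0.25, highest between day 2 EV and day 6 EV. Such correlations cannot exclude pairing. With the replicate number as a block, dTAG13 gave 8 calls (Gins4 lost), day 6 over day 2 gave 7 in EV (Rrm1 lost) and 13 in OE (Pcna lost), and OE gave 0 at day 2 and 1 at day 6. The difference gave 0, DMSO over EV 1 and any difference 25. Shares over all genes were not set beside these block counts. The unknown depth and 2 libraries a group limit all of these values.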
